A study of Mus musculus with 6 samples.

Results

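Cytosolic ribosomal proteins were examined in calf muscle (gastrocnemius and soleus) of Itga7 transgenic and wild type mice. Every probe set with exactly 1 gene symbol was searched for the symbols of these proteins, kinases and other genes that only share the prefix were left out, as was Rps4l, and each gene was read from its brightest probe set. This gave 49 genes among the 18193 gene symbols named by single-symbol probe sets. Of these, 22 encode proteins of the large subunit and 21 of the small subunit, 5 are expressed paralogues of a ribosomal protein, and 1 carries a pseudogene symbol. A further 31 ribosomal protein symbols appear only on probe sets shared with other symbols and are not analysed here by name.

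The transgenic group was made of integrin alpha7 transgenic mice and the wild type group of control mice without the transgene. All animals were female, 5 weeks old, not fasted and of the strain given as SJ6/C57BL6 background. Each of the 3 arrays of a genotype carried RNA of 6 animals in equal amounts, so 18 animals stand behind each genotype, and the spread between arrays is a spread between pools. The sources used here do not name the promoter of the transgene, and the titles of the wild type arrays carry the word Intronic without an explanation. Itga7, which encodes the integrin chain that pairs with beta1 to bind laminin, gave signals of 2498, 2144 and 2072 on the transgenic arrays, against 254.4, 308.2 and 313.5 on the wild type arrays, the order the labels give. All 10 markers of skeletal muscle fibres passed the filter on dim probe sets, and the summed signal of the 10 was 167307 to 174780 on the transgenic arrays and 183927 to 187839 on the wild type arrays.

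Ribosomal proteins are built in near equal numbers into the small subunit, which reads the mRNA, and the large subunit, which joins amino acids. Their mRNAs are among the most abundant of most cells, and many start with a run of pyrimidines, the terminal oligopyrimidine tract, through which mTOR signalling and the binding protein Larp1 set how much of them is translated. In skeletal muscle the number of ribosomes helps set the rate of protein synthesis during growth, and striated muscle has its own large subunit paralogue, Rpl3l, which takes the place of Rpl3 in mature fibres.

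The region of the pyrimidine tract is shown for members of each kind, because the tract is the known feature through which many of these mRNAs are regulated together. A RefSeq start site of build GRCm38.p6 was matched for 43 of the 49 genes, and the window ran from 15 bases before the annotated start to 15 bases from it. Capitals mark the longest unbroken run of C and T anywhere in the window, before or after the start. A marked run, or its absence, therefore does not show whether an mRNA starts with the tract. The first 6 lines are canonical proteins with long runs, the next 2 canonical proteins with short runs and the last 5 the paralogues.
Rps6 (chr4:86857353-86857382, minus strand): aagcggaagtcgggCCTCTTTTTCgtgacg
Rps18 (chr17:33955651-33955680, minus strand): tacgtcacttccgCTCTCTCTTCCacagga
Rps10 (chr17:27635230-27635259, minus strand): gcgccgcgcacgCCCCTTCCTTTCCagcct
Rpl35 (chr2:39005117-39005146, minus strand): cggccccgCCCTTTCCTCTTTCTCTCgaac
Rpl14 (chr9:120571502-120571531, plus strand): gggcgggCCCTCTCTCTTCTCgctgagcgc
Rplp2 (chr7:141447636-141447665, plus strand): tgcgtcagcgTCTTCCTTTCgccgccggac
Rpl41 (chr10:128549154-128549183, minus strand): cacacgggccggCTCggaagtgacgacacc
Rps3a1 (chr3:86142654-86142683, minus strand): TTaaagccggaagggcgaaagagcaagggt
Rpl3l (chr17:24727811-24727840, plus strand): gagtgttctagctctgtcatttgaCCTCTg
Rpl7l1 (chr17:46782642-46782671, minus strand): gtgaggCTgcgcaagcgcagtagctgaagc
Rpl22l1 (chr3:28805493-28805522, plus strand): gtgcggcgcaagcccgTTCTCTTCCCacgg
Rps27l (chr9:66946071-66946100, plus strand): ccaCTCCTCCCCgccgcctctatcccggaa
Rpl39l (chr16:10170213-10170242, plus strand): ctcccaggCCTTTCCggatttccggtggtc

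A run of at least 8 pyrimidines lay in the window of 18 of the 43 genes, or 41.9%, against 11.8% of the 27025 genes with a start site in the table. Such a run lay in the window of 2 of the 5 paralogues and of 16 of the 38 other genes, which are similar shares. Runs spanned 2 to 10 bases among the paralogues, where Rpl7l1 was shortest and Rpl22l1 longest, and 2 to 21 bases among the other genes, where Rps3a1 was shortest and Rpl7a longest. In the 300 bases around the start, CCGGAA, the core letters bound by ETS factors, was found on either strand in 60.5% of the ribosomal protein genes and 15.2% of all genes. TATAAA on either strand was found in 14.0% and 14.2%, and GGGCGG, the core letters bound by Sp1, in 55.8% and 35.9%. None of these motifs contains another. A match is a description of the sequence and not a binding site.

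Transcript levels of the ribosomal proteins in transgenic muscle lay close to those in wild type muscle. Signals were compared as log2(signal + 16), every fold is on that scale, and limma tested all 27022 probe sets whose mean signal was above the 40th percentile. Of the 49 genes 47 passed this filter, 0 were higher and 0 lower at an adjusted p of 0.05, and 0 had an unadjusted p under 0.05. In the whole fit 0.122% of probe sets passed the adjusted threshold (0.0999% higher and 0.0222% lower in transgenic muscle), and 7.86% had an unadjusted p under 0.05. The smallest adjusted p among the 47 was 0.650, for Rpl14. The median log2 difference was 0.04 over the 47 genes, with 31 positive and 16 negative values, against -0.00 over the brightest probe set of each of 12940 genes. The signs depended on the scaling of the arrays, with 37 positive and 10 negative after quantile normalization, and 43 positive and 4 negative with equal array medians, where the median over all probe sets was 0.05.

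The intervals describe the precision of each gene's brightest probe set under the scaling of the deposited values. Other probe sets of Rps10, Rps18 and Rps27l gave differences outside the intervals of their brightest ones, as given below. For 38 of the 47 genes the 95% interval of limma lay within 1.25-fold in either direction, which was true of 26.1% of all genes. The share depends on signal, and among genes with a mean signal above 1000 it was 97.4% of the 38 ribosomal protein genes and 82.1% of all 1354 genes. Over those 38 genes the lowest bound of any interval was 0.868-fold, for Rps14, and the highest was 1.27-fold, for Rpl37. Their median coefficient of variation between pools was 3.82% in the transgenic group and 3.95% in the wild type group. The brightest of these probe sets had a mean signal of 14360, and the highest signal on each array was 21386 to 22469 in the transgenic and 23547 to 23953 in the wild type group.

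**Figure D1:**
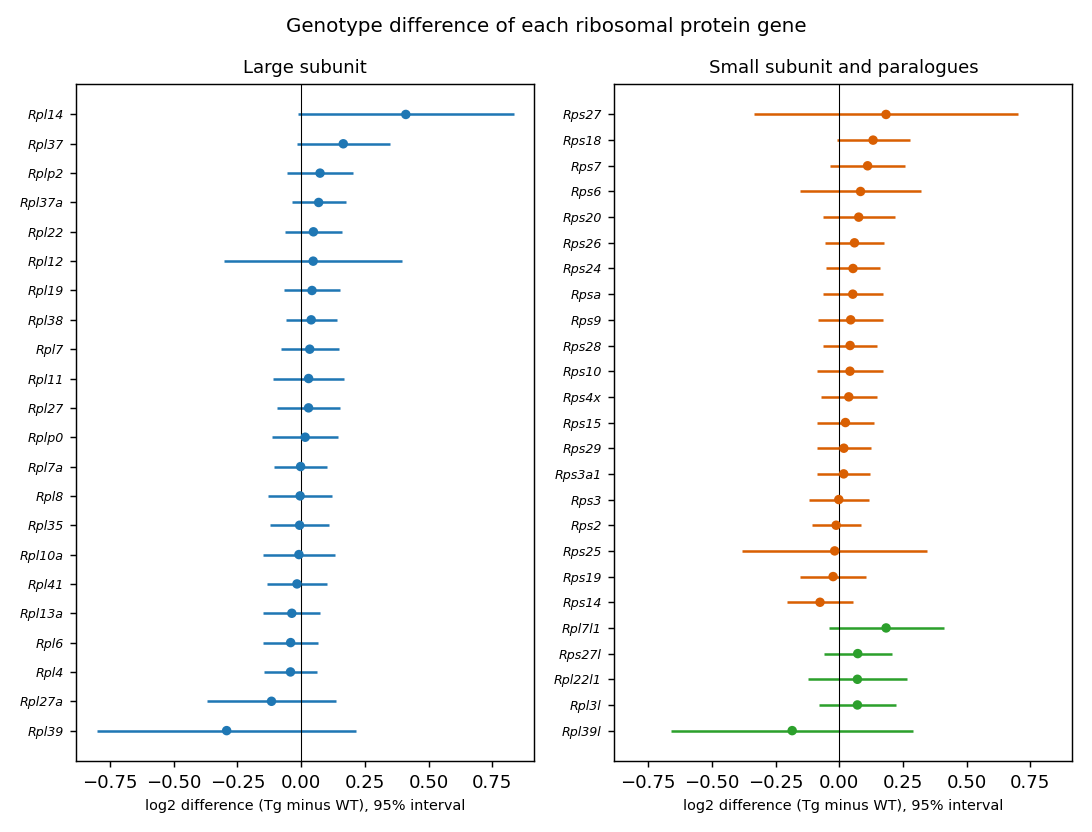
Log2 difference of each of the 47 tested ribosomal protein genes, transgenic minus wild type on the log2(signal + 16) scale, with limma's 95% interval as a line, ordered by value within large subunit (left, blue), small subunit (right, orange) and paralogues (right, green). All 47 intervals include 0, and the widest ones, such as Rpl39 and Rps27, belong to dim probe sets.

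Among the proteins of the large subunit, 12 of 22 genes had positive and 10 negative differences, with a median of 0.02. Rplp0, the base of the ribosomal stalk and a common reference gene, gave signals of 12304, 10665 and 10625 in transgenic muscle, against 11095, 11066 and 10983 in wild type muscle. Its transgenic replicate 1 was the highest of the 6 arrays and the other 2 transgenic arrays the lowest, so the groups overlapped. The mean was 11198 ± 958 in transgenic and 11048 ± 58.0 in wild type muscle (SD, n = 3 each), a 1.01-fold ratio with an interval of 0.924 to 1.11. Rplp2, a protein of the stalk that recruits elongation factors, gave 7131 ± 164 in transgenic and 6783 ± 487 in wild type muscle (SD, n = 3 each), and Rpl4, a core protein of the exit tunnel, 10063 ± 376 in transgenic and 10354 ± 124 in wild type muscle (SD, n = 3 each). Neither Rplp2 nor Rpl4 passed, with adjusted p of 0.806 and 0.877 in limma.

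Rpl37 and Rpl14 had the largest positive differences of the large subunit. Rpl37, a zinc-binding protein, gave 1155, 1071 and 965.5 in transgenic muscle, against 905.9, 995.1 and 934.3 in wild type muscle. The lowest transgenic array lay between the wild type arrays, and the log2 difference of 0.17 had an interval of -0.02 to 0.35 (limma's adjusted p, 0.678). Rpl14 was read from a dim probe set, with 49.5, 63.2 and 63.1 in transgenic muscle, against 36.6, 37.0 and 46.7 in wild type muscle. All transgenic arrays lay above all wild type arrays, and the log2 difference was 0.41 with an interval of -0.01 to 0.83. At the other end, Rpl39, a small protein of the exit tunnel, gave 128.6, 181.7 and 84.5 in transgenic muscle, against 157.6, 203.3 and 122.6 in wild type muscle. Its arrays overlapped, and the log2 difference of -0.29 had an adjusted p of 0.806 in limma. The other large subunit genes, among them Rpl37a, Rpl19, Rpl41, Rpl13a, Rpl7a and Rpl27a, lay between -0.12 (Rpl27a) and 0.07 (Rpl37a).

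Among the proteins of the small subunit, 15 of the 20 tested genes had positive and 5 negative differences, with a median of 0.04. Rps18, a protein of the subunit's head, gave 6542, 6707 and 7390 in transgenic muscle, against 6113, 6761 and 5948 in wild type muscle. The groups overlapped through wild type replicate 2, and the log2 difference of 0.13 had an interval of -0.01 to 0.28 (limma's adjusted p, 0.669). Rps7 gave 6464, 7588 and 7427 in transgenic muscle, against 6244, 6865 and 6737 in wild type muscle, again with overlap and with an adjusted p of 0.742 in limma. Rps6, the protein phosphorylated by S6 kinase downstream of mTOR, was read from a probe set with 291.9, 289.3 and 291.8 in transgenic muscle, against 310.9, 246.1 and 267.9 in wild type muscle. Its transgenic values lay inside the wild type range, at a ratio of 1.06-fold with an interval of 0.899 to 1.25.

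The most negative difference of the small subunit was that of Rps14, with 8725, 8579 and 9620 in transgenic muscle, against 9772, 9671 and 8917 in wild type muscle. Transgenic replicate 3 and wild type replicate 3 had the opposite order to the other arrays, and the log2 difference was -0.08. The arrays were split here into 2 rounds of hybridisation by their recorded times. In the first round alone, which held 2 arrays of each genotype, the log2 difference was -0.17 with an adjusted p of 0.429 in limma. In the second, with 1 of each and no test, it was 0.11. Rpsa, which is also a laminin-binding protein of the cell surface, gave 5281 ± 116 in transgenic and 5091 ± 208 in wild type muscle (SD, n = 3 each), a ratio of 1.04-fold with an interval of 0.956 to 1.13. Rps29, with 14447 ± 342 in transgenic and 14273 ± 623 in wild type muscle (SD, n = 3 each), was read from the brightest probe set and had a ratio of 1.01-fold. The remaining small subunit genes above a signal of 1000, among them Rps2, Rps3, Rps19, Rps20, Rps24 and Rps26, lay between -0.02 (Rps19) and 0.08 (Rps20).

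Paralogues showed no call either. Rpl3l, the striated muscle paralogue, gave 4851, 4588 and 5041 in transgenic muscle, against 4177, 4960 and 4666 in wild type muscle. The groups overlapped, and the ratio of 1.05-fold had an interval of 0.946 to 1.17 (limma's adjusted p, 0.847). Rpl22l1, the paralogue of the RNA-binding Rpl22, gave 4760, 4688 and 3853 in transgenic muscle, against 3792, 4449 and 4391 in wild type muscle. Its lowest transgenic array lay near the lowest wild type array, and Rpl22 itself gave 6029 ± 26.8 in transgenic and 5833 ± 245 in wild type muscle (SD, n = 3 each).

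Rpl7l1, a paralogue of Rpl7, gave 552.8, 451.1 and 463.4 in transgenic muscle, against 413.1, 406.9 and 462.8 in wild type muscle. Transgenic replicate 1 stood above the rest and the ratio was 1.14-fold, with an interval of 0.972 to 1.33, while Rpl7 itself gave 1.02-fold. Rps27l, a p53-responsive paralogue of Rps27, gave 2605, 2551 and 2549 in transgenic muscle, against 2540, 2305 and 2485 in wild type muscle. The groups did not overlap, by a narrow margin, and the ratio was 1.05-fold. Rpl39l, which is known from testis, was dim at 29.3, 30.2 and 31.3 in transgenic muscle, against 39.9, 33.8 and 36.2 in wild type muscle, and did not overlap, with an adjusted p of 0.881 in limma.

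**Figure D2:**
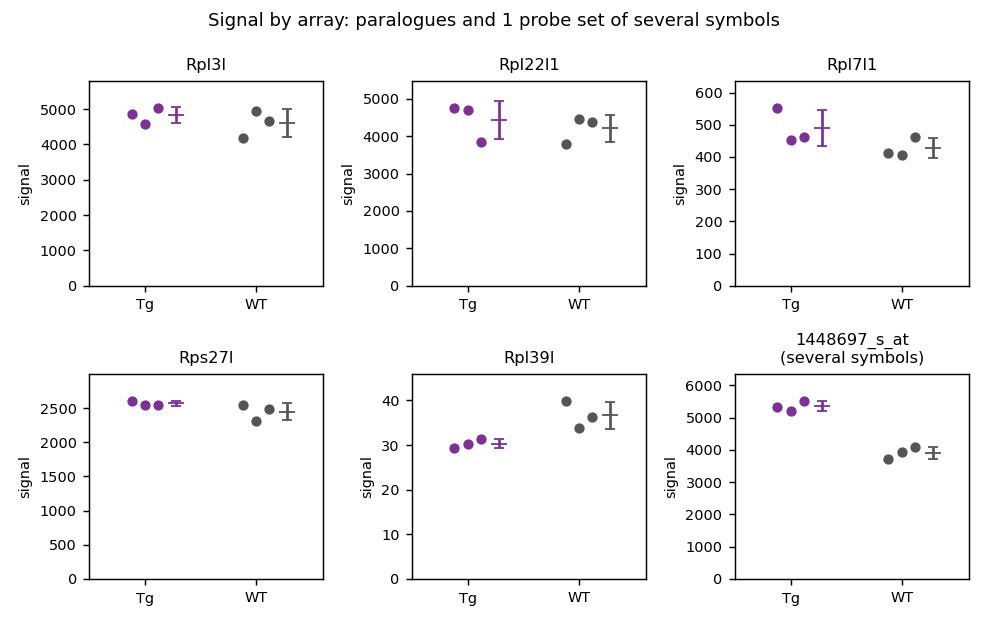
Signal on each array (points) with mean and SD of 3 pools (bars) for the 5 paralogues and for 1 probe set that carries several symbols, transgenic (Tg) left and wild type (WT) right, each axis starting at 0. The transgenic points of 1448697_s_at, at 5212 to 5522, all lie above the wild type points at 3716 to 4087, while Rpl3l, Rpl22l1 and Rpl7l1 overlap.

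At the brightest probe set of each gene, groups that do not overlap were not more frequent than over all probe sets. The 3 arrays of each genotype stood apart for 5 of the 47 genes, 3 higher and 2 lower in transgenic muscle, which is 10.6% against 13.4% of all probe sets tested (5.87% higher and 7.52% lower). Over all 94 probe sets of the 49 genes above the filter the share was 17.0%, with 12 higher and 4 lower, or 12.8% and 4.26%. Beside Rpl14, Rps27l and Rpl39l these were Rpl6 and Rpl38, of which Rpl38 was chosen for this count. Rpl38, known for a role in the translation of Hox mRNAs, gave 9491, 9485 and 9763 in transgenic muscle, against 9178, 9307 and 9475 in wild type muscle. Rpl6 gave 5125, 5097 and 5072 in transgenic muscle, against 5274, 5260 and 5204 in wild type muscle. Both differences were small, at 1.03-fold and 0.972-fold, with adjusted p of 0.877 and 0.882 in limma.

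Below the filter were 2 genes, and 9 more were dim. Rps16 was measured at 0.426 to 1.04 in transgenic and 0.807 to 3.33 in wild type muscle, and Rps15a-ps6 at 0.397 to 9.28 in transgenic and 8.59 to 13.1 in wild type muscle, both below the filter's signal of 23.0. In all, 11 of the 49 genes were read at a mean signal under 1000, and for 8 of these a brighter probe set listed the same symbol together with others. The 9 that were tested were Rpl7l1, Rps6, Rpl27a, Rpl39, Rps25, Rpl12, Rps27, Rpl14 and Rpl39l, and 5 of them had positive and 4 negative differences. Rps27, which carries a zinc finger, was 103.1, 57.1 and 44.6 in transgenic muscle, against 58.0, 54.4 and 53.2 in wild type muscle, where the high value of transgenic replicate 1 stands behind the log2 difference of 0.18. Just inside the filter was Rpl39l, with a mean of 33.5 over the 6 arrays, and just outside it was Rps15a-ps6, with 8.41.

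**Figure D3:**
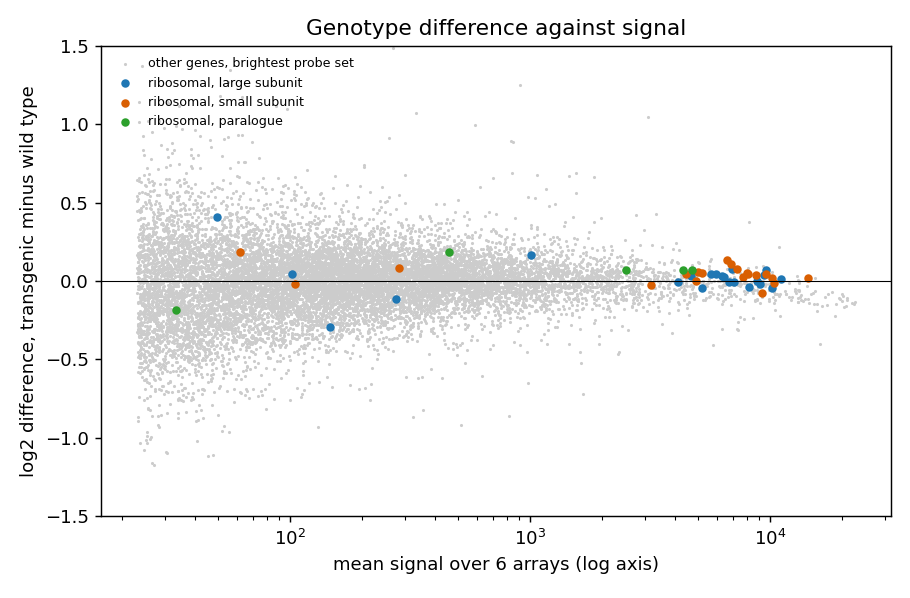
Log2 difference, transgenic minus wild type, against mean signal over 6 arrays on a log axis, for the 47 ribosomal protein genes (coloured by kind) and the other 12893 genes at their brightest probe set (grey), of which 3 lie outside the plotted range. The ribosomal protein genes above a signal of 4000 lie between -0.08 and 0.13, while many of the brightest other genes lie below 0.

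The background differed with signal. The 38 ribosomal protein genes above 1000 had a median log2 difference of 0.04, and 26 of them, or 68.4%, were positive, while over all 1354 genes above 1000 the median was -0.00 and 47.9% were positive. Over the 308 genes above 4000 the median was -0.04 and 29.2% were positive. Both gene sets include ribosomal ones. All 10 skeletal muscle markers, among them the fast myosin Myh4 and the fast troponin Tnnt3, had negative differences, with a median of -0.12 and 0 calls. Of the 10, 5 had an unadjusted p under 0.05 in limma, against 7.86% of all probe sets. For 6 of them all transgenic arrays lay below all wild type arrays, against 7.52% of all probe sets. The part of these muscle genes in the ribosomal values was not tested.

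Together the 49 genes took 2.28%, 2.28% and 2.31% of the summed signal of all probe sets on the transgenic arrays, against 2.19%, 2.27% and 2.22% on the wild type arrays. The sums themselves overlapped, at 273168, 270765 and 271248 on the transgenic and 260547, 272815 and 267431 on the wild type arrays. The shares also depend on the total signal of each array. Every transgenic share lay above every wild type share, wild type replicate 2 coming closest. A share of this kind does not change with the scaling of an array. On the transgenic arrays, where this share was higher, the sum of the muscle markers was lower, as given above. The part of that sum in the share was not tested. In bulk muscle a change in RNA per cell and a change in the mix of cells cannot be told apart.

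Among the arrays left out in turn, wild type replicate 1 moved the median the most. Its median deviation from the genes' own means was -0.05 on the log2 scale, and it held the lowest value for 22 of the 47 genes. The other arrays had median deviations of 0.02, 0.02 and 0.02 in the transgenic group and 0.01 and -0.01 in the wild type group. Without that array the median log2 difference was 0.0037, with 24 positive and 23 negative values, and the number called stayed at 0. In the first round of hybridisation, to which this array belongs, the median was 0.04, and in the second round 0.04.

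**Figure D4:**
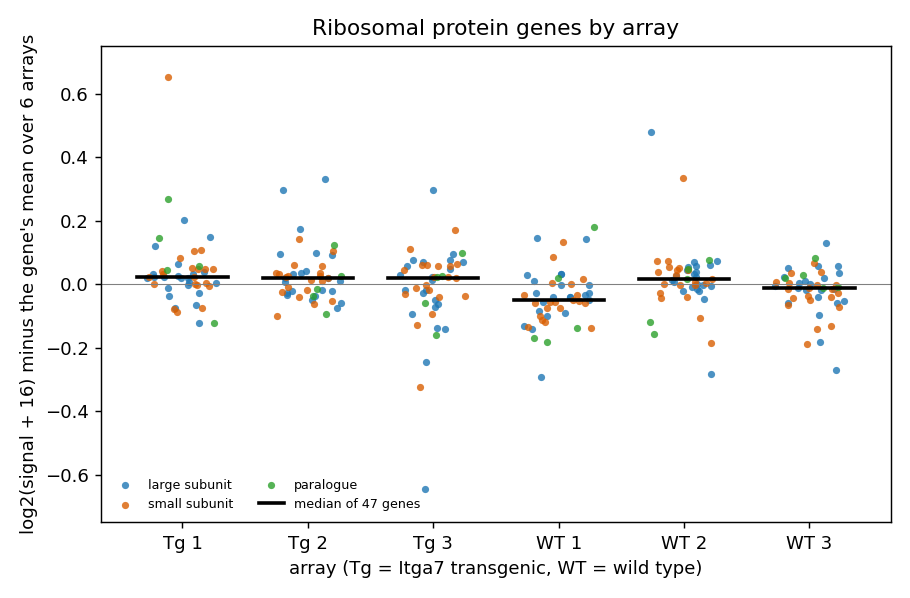
Deviation of each of the 47 tested ribosomal protein genes from its own mean over 6 arrays, on the log2(signal + 16) scale, by array (points, coloured by kind) with the median of the 47 genes as a black bar. The median lies at -0.05 on wild type replicate 1 (WT 1) and between -0.01 and 0.02 on the other 5 arrays.

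Different probe sets of a gene did not always tell the same. Of 20 genes with 2 or more probe sets above the filter, 11 had differences of 1 sign and 9 of both signs. Dim probe sets and values near 0 count in this. In Rps24 only a dim probe set, with a mean signal of 29.7, had a negative difference. Over all 94 probe sets of the 49 genes that passed the filter, 6 had an unadjusted p under 0.05, or 6.38%, 0 were called, and the smallest adjusted p in limma was 0.172. That smallest value belonged to Rps10, a small subunit protein named here after its values were seen. Its probe set 1434854_a_at gave 3405, 3529 and 3753 in transgenic muscle, against 2956, 2892 and 2980 in wild type muscle, a 1.21-fold ratio, while its brightest probe set gave 1.03-fold.

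Rps18 and Rps27l showed the same kind of disagreement. For Rps18 the brightest probe set gave a log2 difference of 0.13, the next, 1455572_x_at, -0.17 with all transgenic arrays lower, and 1435712_a_at 0.20 with all transgenic arrays higher. For Rps27l, 1423254_x_at gave 2485, 2307 and 2611 in transgenic muscle, against 2099, 2052 and 1867 in wild type muscle, a 1.23-fold ratio with an adjusted p of 0.243 in limma, and its other probe sets 1.05-fold and 1.01-fold. Of the 49 genes 32 were read from probe sets whose ending (_a_at, _s_at or _x_at) marks probes that can match more than 1 transcript. For _a_at these can be transcripts of the same gene, so the 32 do not count matches to other genes. Ribosomal protein genes have many near-identical pseudogene copies, and the values of single genes are uncertain to an extent that was not measured. Read from probe sets with the plain ending alone, 22 genes passed the filter, with a median log2 difference of 0.05 and 0 calls. These belong to the 94 probe sets above, so their 0 calls were known from the main fit.

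**Figure D5:**
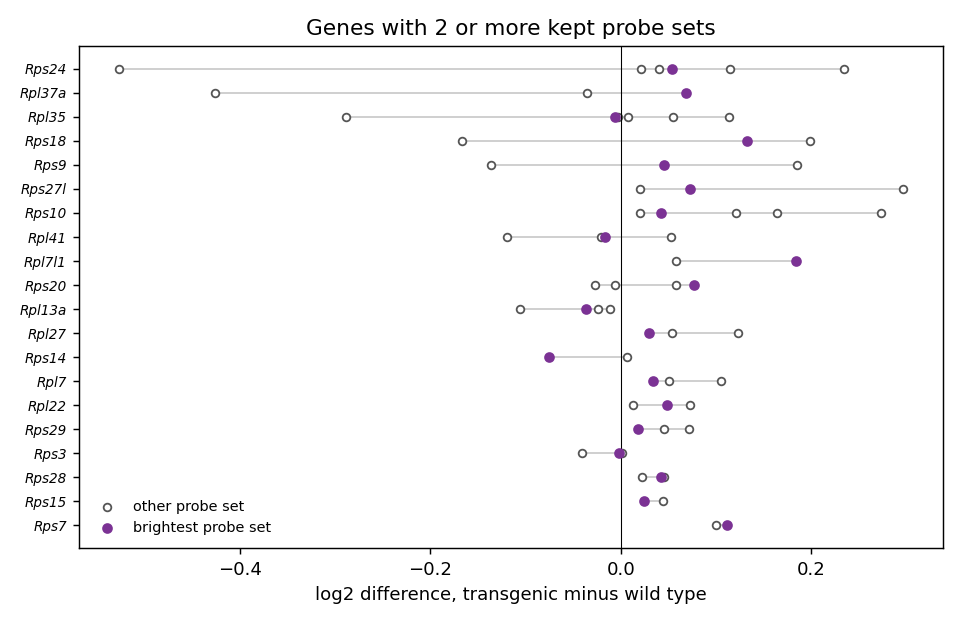
Log2 difference, transgenic minus wild type, of every probe set above the filter for the 20 genes that have 2 or more, with the brightest one filled and the others open, ordered by spread. Rps24 spans -0.53 to 0.23, both ends being dim probe sets with mean signals of 29.7 and 71.9. Rps18 lies on both sides of 0, while the probe sets of Rps7, Rps15 and Rps28 lie close together.

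One probe set outside the 49 genes passed the test. Of 110 probe sets that list several symbols with at least 1 ribosomal protein symbol among them, 103 passed the filter and 1, or 0.971%, was called, against 0.122% of all probe sets. It was 1448697_s_at, which lists 3 symbols of which 2 are ribosomal, so no gene is named from it. It gave 5339, 5212 and 5522 in transgenic muscle, against 3716, 3930 and 4087 in wild type muscle, a ratio of 1.37-fold with an interval of 1.26 to 1.49 (limma's adjusted p, 0.0119). A second probe set that lists only ribosomal symbols, 1416807_at, gave 4455, 3697 and 4358 in transgenic muscle, against 3321, 3226 and 3469 in wild type muscle. Its ratio was 1.24-fold with an adjusted p of 0.226 in limma. Of the 4 that were lower in transgenic muscle without overlap, 1439447_x_at was at 0.676-fold and 1435817_x_at at 0.812-fold. The others, 1416141_a_at and 1431765_a_at, were at 0.964-fold and 0.965-fold. In that order the adjusted p in limma was 0.297, 0.384, 0.816 and 0.831. The called probe set, 1448697_s_at, held its call in 14 of 18 alternatives. It missed the threshold with 1 wild type array left out (adjusted p of 0.0601 for replicate 1 and 0.0741 for replicate 2), with no filter (0.0520) and with no intensity trend (0.440). All of the probe sets named here were chosen after their values were seen. Over the 103 probe sets the median log2 difference was 0.04, with 75 positive and 28 negative values. An unadjusted p under 0.05 was found for 10 of them, or 9.71%, against 7.86% of all probe sets. The groups did not overlap for 15 that were higher and 4 that were lower in transgenic muscle, or 14.6% and 3.88%, against 5.87% and 7.52% of all. Many of these probe sets can share transcripts with each other and with the 49 genes, so they are not independent readings.

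Genes that work with the ribosome were described from lists. Of 17 measured companions whose mRNAs are known to carry the same pyrimidine tract, 12 had positive and 5 negative differences, with a median of 0.02 and 0 calls. Btf3, a subunit of the nascent polypeptide-associated complex, gave 2570, 2744 and 2897 in transgenic muscle, against 2459, 2351 and 2547 in wild type muscle, a ratio of 1.11-fold with an adjusted p of 0.597 in limma. Of 31 ribosome assembly factors 19 had positive and 12 negative differences, with a median of 0.06 and 0 calls. Their summed signal, in which bright genes weigh most, was 13566 to 14468 in transgenic and 13113 to 13340 in wild type muscle. The groups did not overlap for 3 factors that were higher and 4 that were lower in transgenic muscle. Over all probe sets these shares were 5.87% and 7.52%. Among the lower ones was Dkc1, at 0.851-fold with an adjusted p of 0.692 in limma. Rrs1, a factor of large subunit assembly, gave 380.0, 429.4 and 466.9 in transgenic muscle, against 366.4, 376.8 and 338.3 in wild type muscle, a ratio of 1.17-fold with an adjusted p of 0.630 in limma.

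Of 16 genes of RNA polymerase I and of the control of ribosome production, 10 had positive and 6 negative differences, with a median of 0.04 and 0 calls. Polr1d, a subunit shared by RNA polymerases I and III, gave 2457, 2499 and 2540 in transgenic muscle, against 2177, 2200 and 2344 in wild type muscle, without overlap and with an adjusted p of 0.543 in limma. Mtor gave 0.893-fold and Larp1 0.900-fold, with adjusted p of 0.769 and 0.734 in limma. Of 23 initiation factors 11 had positive and 12 negative differences, with a median of -0.01 and 0 calls. Eif3b, a subunit of the initiation factor that holds the small subunit on the mRNA, gave 626.6, 629.3 and 645.6 in transgenic muscle, against 435.4, 536.1 and 467.7 in wild type muscle, a ratio of 1.32-fold with an adjusted p of 0.226 in limma.

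Markers of other cells that could bring ribosomal transcripts into the tissue were listed beside these values. Of the marker lists, erythroid, lymphocyte, adipocyte and satellite cell markers had positive medians (0.06, 0.19, 0.10 and 0.10), and macrophage, endothelial and fibroblast markers negative ones (-0.06, -0.16 and -0.02), each with 0 calls. The erythroid median rests on 2 genes, because only 3 of the 7 listed were matched and a haemoglobin gene among them was below the filter. Summed, the 3 gave 116.8 to 208.4 in transgenic and 123.9 to 168.9 in wild type muscle. The summed signal of the 8 matched lymphocyte markers was 1070 to 1187 in transgenic and 932.5 to 1129 in wild type muscle, with Cd3e below the filter. The summed signal of the 8 satellite cell and myoblast markers was 5051 to 5837 in transgenic and 5321 to 5464 in wild type muscle. Their part in the ribosomal values was not tested.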

How the data were processed

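Labelled RNA of 6 pools was hybridised to Affymetrix Mouse430_2 arrays, per the file headers. The authors deposited a linear intensity for each probe set, made with GCOS 1.1.1 per the submitters' processing notes, and no source used here states the algorithm. Trimming 2% at both ends gave a mean of 150.0 for all arrays, so the values cannot show a shift common to most transcripts. The deposited run information gave a clock time of hybridisation for each array and 4 fluidics modules, each with 1 genotype. From the clock times alone, with a cut-off chosen here, the arrays were split into 2 rounds of hybridisation, each with both genotypes. No source used here names such rounds.

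Of 45101 rows, 64 controls were dropped. Values were taken as log2(signal + 16) with no further normalization, and probe sets with a mean above the 40th percentile, a signal of 23.0, were kept. The model (limma 3.58.1, R 4.3.3) compared the genotypes without covariates, let the variance prior follow intensity, used two-sided tests with Benjamini-Hochberg adjustment over all kept probe sets, and was tested on simulated data. Gene names came from the platform annotation, updated through gene identifiers to RefSeq of GRCm38.p6, which matched 34741 of 34945 probe sets with 1 symbol.

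The members and lists were chosen with earlier results of these data known. Named genes were those with the 12 smallest p in either direction, the 5 brightest and 5 dimmest, paralogues with their parents, stalk proteins, Rpsa, Rps6 and up to 4 genes of each list, with values for a part. Rpl38, Rps10, Rpl7a, Rpl12, Rpl19, Rps3, Rps15, Rps25, Rps28 and Cd3e fall outside this rule and were chosen after their values were seen. Replicate numbers were not treated as a pairing of the pools in the main fit. Correlations between arrays were 0.970 to 0.980, and the number of arrays limits the precision. Alternatives covered the offset, normalization, filter, variance trend, array weights, blocks, single rounds, left-out arrays and the choice of probe set.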

Additional observations from a re-analysis of the deposited data

How the results depend on the processing

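The number of ribosomal protein genes called was 0 under all 21 alternatives with a test, with a smallest adjusted p in limma of 0.160 to 0.840 and 0 to 5 genes at an unadjusted p under 0.05. Among these, the plain ending and the signal above 1000 only selected values from the main fit, so their 0 calls were fixed in advance. Their median log2 difference was 0.063 with quantile normalization and 0.11 with equal array medians, where the median of all probe sets was 0.05, and 0.0037 (without wild type replicate 1) to 0.045 when 1 array was left out. The count of probe sets called was 17 with no filter, 1 without the intensity trend, 51 with equal array medians, 299 when modules were a random block (correlation within modules of -0.44) and 16 to 39 when 1 array was left out. Each module held 1 genotype, so effects of module and genotype cannot be told apart, and the 299 is not read as more differences. Leaving out wild type array 2 gave 16 and wild type array 1 gave 19. Itga7 passed throughout, with log2 differences of 2.66 to 2.98. Of 635 values of 30 named genes under alternatives 596 moved by less than the SD between pools and 39 by more, and 0 became calls. Values that a selection from the main fit left unchanged are among the 596. With the replicate block 37 probe sets and 0 ribosomal protein genes were called. The deviations of pools with the same number correlated at 0.00, 0.06 and 0.05, and those of pools with different numbers at -0.08 to 0.02. With 3 pools per genotype these values cannot decide whether the numbers are a pairing. Restricting the genes to those with a signal above 1000 was chosen after seeing the data and gave a median of 0.04, its 0 calls being those of the main fit. Dim probe sets limit what can be said of the 9 tested genes under that signal, whose intervals had a median half-width of 0.36 on the log2 scale.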
